A study of Ovis aries with 23 samples.

Results

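Photoperiod change was followed in those PT samples that held little CRY1 mRNA. These CRY1-low samples were selected on a measured value, CRY1 (ENSOARG00000017816) under 80 CPM, where CPM is the usual scaling of the count of a gene to the total count of its sample. The rule took 10 of the 23 samples of experiment 2. SP samples 1 and 3 and LP day 1 samples 1 and 6 formed an earlier group of 4. LP day 7 samples 1, 3, and 5 and LP day 28 samples 1, 3, and 5 formed a later group of 6. The other 13 samples are called CRY1-high, with 7 from SPs or LP day 1 and 6 from LP days 7 and 28. All samples were whole PT tissue of castrate male Scottish blackface sheep, which were held on SPs and then kept on LPs for 1, 7, or 28 days, and the full series held 5 samples on SPs and 6 on each LP day. The sources used here do not say that each sample is a separate animal, so p-values measure the spread between these samples, part of which may be technical. They also give no time of day at which these samples were taken.

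The PT is a thin sheet of tissue around the pituitary stalk whose thyrotroph cells carry melatonin receptors and so read the length of the night. Nocturnal melatonin induces CRY1 there, a repressor of the circadian clock that holds back the CLOCK and ARNTL transcription factors. On LPs the co-activator EYA3 rises and helps to switch on TSHB, the specific subunit of thyrotropin, which joins the common subunit encoded by CGA. PT thyrotropin in turn acts on thyroid hormone metabolism in the neighbouring hypothalamus.

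CRY1 itself chose the samples and is described without a test. In the CRY1-low samples it stood at 23.03 and 22.5 CPM on SPs, 29.9 and 36.7 CPM on LP day 1, 24.3, 23.1, and 25.3 CPM on LP day 7, and 28.8, 24.9, and 15.98 CPM on LP day 28. The highest sample inside the limit was LP day 1 sample 6 with 36.7 CPM, and the lowest outside it was LP day 28 sample 4 with 123 CPM. No sample lay between these values, and each of the 4 photoperiod groups had members on both sides.

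**Figure D1:**
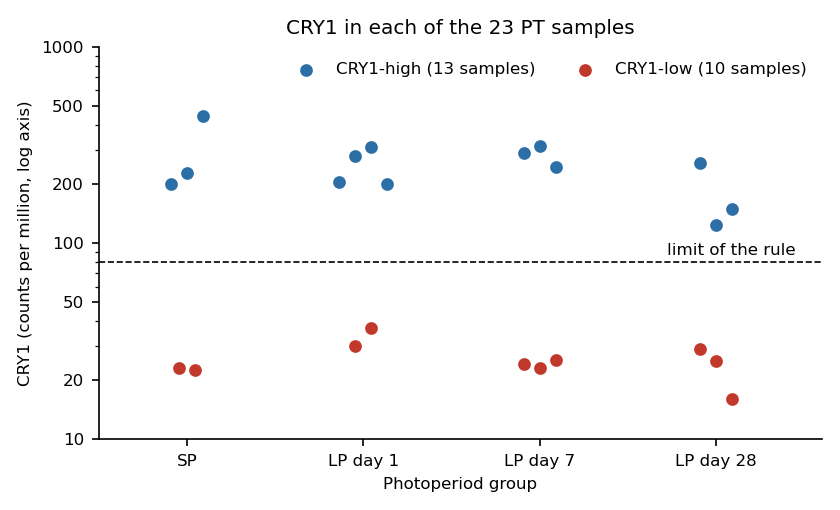
CRY1 in CPM (log axis) in each of the 23 samples by photoperiod group, with the limit of the rule as a dashed line. The 10 CRY1-low samples (red) lie at 15.98 to 36.7 CPM and the 13 CRY1-high samples (blue) at 123 CPM or more.

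Total counts of the CRY1-low samples lay between 1852503 and 4413929, with a median of 3527501. The detection limit was set at 3 counts, or at most 1.62 CPM in any of them, and covers counting error only. The thyrotroph genes TSHB and CGA had counts in each of the 10 samples. The study also reports TSHB protein in pars distalis thyrotrophs, at a level that photoperiod did not alter. In the PT it found this protein on LPs but could not detect it on SPs. From which of these tissues the TSHB and CGA counts came was not tested here. Genes of the neighbouring pars distalis were abundant too, since PRL, the prolactin gene, took from 2.35% to 21.0% of the counts of a sample. Of 11 pars distalis marker genes, 9 had a paired identifier and all 9 were detected. Their summed level was 46704 to 132715 CPM in the earlier group and 46625 to 272800 CPM in the later group, and 0 of the 9 passed the test below, with 2 at an unadjusted p under 0.05. Summed folliculostellate markers (4 of 8 paired, VIM and GFAP among them) lay at 1316 to 2312 CPM and 1523 to 1778 CPM. No member passed, 2 had an unadjusted p under 0.05, and the median log2 fold change was -0.28. GFAP is also on the list for tanycytes, astrocytes, and neurons, and the study stains tanycytes for vimentin, the VIM protein. This sum is thus not specific to folliculostellate cells. Of the lists for tanycytes, astrocytes, and neurons, for blood and immune cells, and for endothelial and mural cells, 2 of 19, 1 of 11, and 0 of 11 genes had an identifier, so these cells could hardly be followed. In whole tissue, fewer cells of a type and less RNA per cell cannot be told apart.

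Between the earlier and the later group, 13 genes changed in the CRY1-low samples. EYA3, the fatty acid ligase gene ACSL4, the clock genes ARNTL2 and CIART, the thyroid hormone transporter gene SLCO1C1, and the pigment enzyme gene DCT were among the 11 that were higher on LP days 7 and 28. The secretory granule protein gene CHGA and ENSOARG00000001811, which has no paired symbol, were lower. CPM values of named genes are normalized by edgeR's TMM method over all 23 samples, and log2 fold changes are later over earlier. The 13 genes were called by edgeR's quasi-likelihood test at a false discovery rate (FDR, Benjamini-Hochberg) under 0.05 and are 0.0858% of the 15154 genes tested, of which 1138 had an unadjusted p under 0.05. For all 13, no sample of the later group overlapped the earlier group, which held for 265, or 1.75%, of all genes tested. Without SP sample 3 the count fell to 4 and without SP sample 1 to 7, of which 5 were among the 13. Without LP day 7 sample 3 it was 23.

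EYA3 (ENSOARG00000003071) was among the genes that rose. It stood at 37.1 and 28.3 CPM on SPs and at 60.4 and 75.6 CPM on LP day 1. On LP day 7 it reached 969, 381, and 332 CPM, and on LP day 28 it was 407, 123, and 471 CPM. The lowest later sample, LP day 28 sample 3, was thus above the highest earlier sample, LP day 1 sample 6. The earlier mean was 50.3 ± 21.6 CPM (SD, n = 4), the later mean was 447 ± 282 CPM (SD, n = 6), and the log2 fold change was 3.16 (standard error, SE, 0.45, FDR 0.0119, edgeR's quasi-likelihood test, Benjamini-Hochberg adjusted), or 8.93-fold. Without SP sample 1 or SP sample 3, the FDR of EYA3 was 0.0576 or 0.0667 in the same edgeR test, at log2 fold changes of 3.04 and 2.96.

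ACSL4 (ENSOARG00000017954), which encodes an enzyme that activates arachidonic acid and other long-chain fatty acids, had the lowest p of all genes tested. It was 146 and 105 CPM on SPs, 175 and 159 CPM on LP day 1, 952, 462, and 489 CPM on LP day 7, and 1509, 867, and 1280 CPM on LP day 28. Each later sample was well above each earlier sample, and 2 of 3 LP day 28 samples exceeded all LP day 7 samples. The log2 fold change was 2.66 (SE 0.31, FDR 0.00696, same edgeR test), a 6.31-fold rise, and the gene passed with each of the 10 samples left out in turn, at an FDR of 0.0326 or lower.

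**Figure D2:**
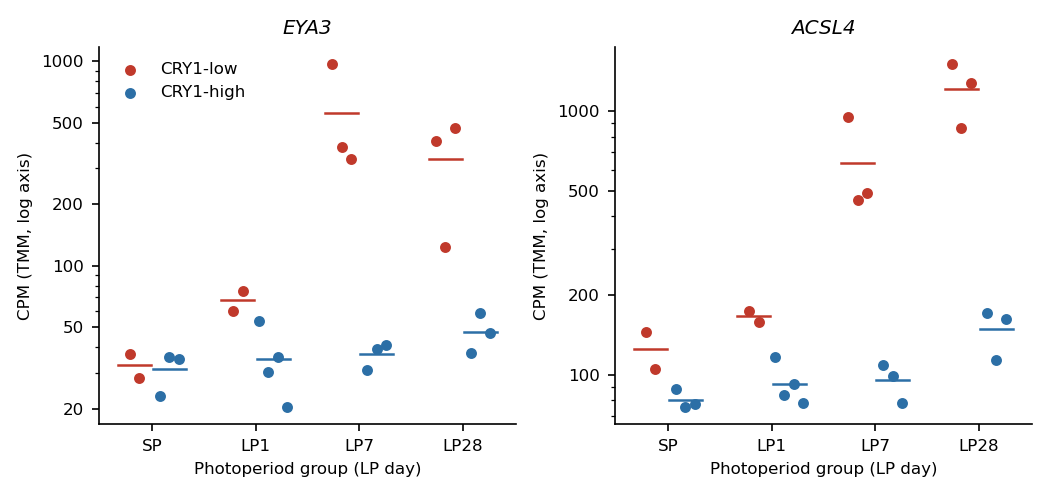
EYA3 and ACSL4 in CPM (TMM normalized, log axes) by photoperiod group, with each sample as a point and the group mean as a line. In CRY1-low samples (red) both genes are higher on LP days 7 and 28, whereas in CRY1-high samples (blue) EYA3 stays at 20.4 to 58.5 CPM and ACSL4 at 75.5 to 171 CPM.

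Among circadian clock genes, 2 of 13 tested members of the list passed the test and both rose, with none lower. The list's median log2 fold change was 0.48, beside -0.00 over all genes tested, 11 members had a positive value, and 8 had an unadjusted p under 0.05. A listed gene could be followed only if the study's tables of differentially expressed (DE) genes gave its symbol. Those tables rest partly on these samples. Counts and medians of this list, and of all other lists here, are thus not independent evidence when set beside all genes. CIART (ENSOARG00000020795), a repressor of CLOCK and ARNTL activity, had 10.6, 13.3, 9.08, and 11.2 CPM in the earlier samples and from 17.6 to 74.6 CPM, median 49.7 CPM, in the later samples. Its log2 fold change was 2.10 (SE 0.32, FDR 0.0151, same edgeR test), and the call was lost with any 1 of the 4 earlier samples left out, at FDR values of up to 0.0873. ARNTL2 (ENSOARG00000019779), a partner of CLOCK, was near the limit of detection in the earlier samples, with 3 and 1 counts on SPs and 2 and 1 counts on LP day 1. The later samples held 7 to 39 counts of it, or 2.11 to 9.93 CPM. Over the pooled counts, 7 against 129, the ratio of later to earlier was 11.1, with an exact 95% interval of 5.22 to 28.1 for counting error only. Its log2 fold change was 3.41 (SE 0.56, FDR 0.0252, same edgeR test), and leaving out single samples kept the call in 3 of 10 cases.

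None of the other clock genes passed. BHLHE41 and NR1D1, which encode transcriptional repressors, had log2 fold changes of 1.40 and 0.96, at an FDR of 0.15 and 0.47 in the same edgeR test. All LP day 7 samples had more BHLHE41 than the other CRY1-low samples. It was 191, 112, and 127 CPM on LP day 7 but 68.6, 44.9, and 93.5 CPM on LP day 28, beside 27.4 to 47.0 CPM in the earlier samples. NR1D1 was 458, 257, and 298 CPM on LP day 7 and 128, 107, and 277 CPM on LP day 28, beside 109.6 to 152 CPM in the earlier samples. LP day 28 samples 1 and 3 thus did not exceed the earlier range. The output factor genes DBP and TEF had log2 fold changes of 0.85 and 0.48, with FDR values of 0.37 and 0.245. ARNTL had -0.64 and FBXL21, which encodes a factor that marks CRY proteins for turnover, -0.40, with FDR values of 0.39 and 0.86 (same edgeR test).

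**Figure D3:**
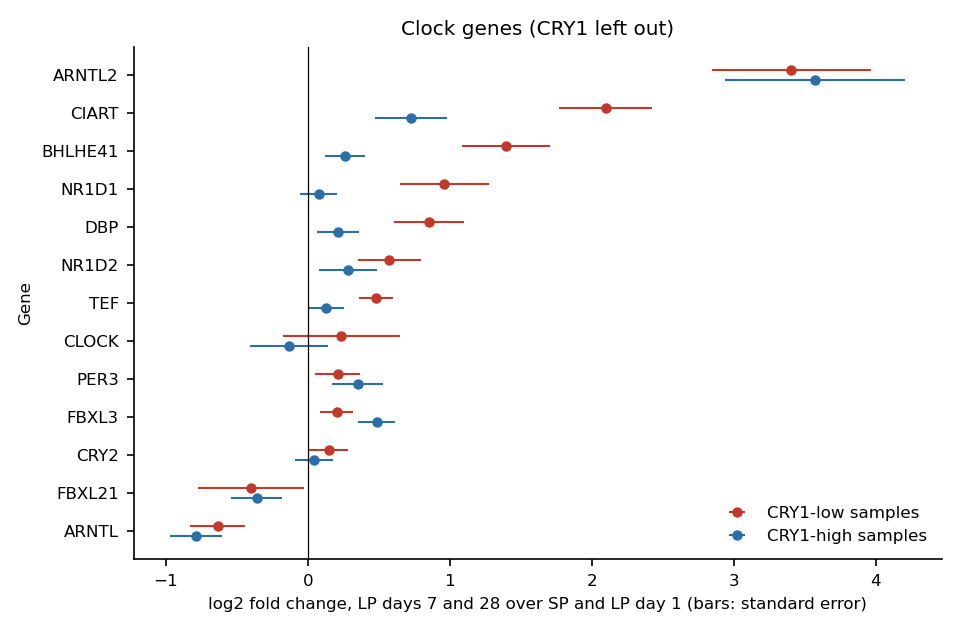
Log2 fold change of the 13 clock genes tested (CRY1 left out), LP days 7 and 28 over SP and LP day 1, in CRY1-low (red) and CRY1-high (blue) samples, with standard errors as bars. ARNTL2 lies at 3.41 and 3.57 in the 2 sets, and CIART at 2.10 and 0.73.

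Of the 12 genes tested on the list of the thyrotroph and its photoperiod relay, EYA3 and SLCO1C1 passed, both higher. Only 6 of the 12 had a positive value, so the list did not rise as a whole. Its median was 0.28 beside -0.00 over all genes, and 7 members had an unadjusted p under 0.05. SLCO1C1 (ENSOARG00000020436), which carries thyroxine into cells, had 29.1 and 23.7 CPM on SPs, 53.7 and 45.6 CPM on LP day 1, and 90.3 to 140 CPM, median 116 CPM, in the later samples. The values on LP day 1 lay above both SP values. Between LP day 1 and SPs, however, 5483 of the 15861 genes tested did not overlap, and SLCO1C1 did not pass. Its log2 fold change was 1.59 (SE 0.21, FDR 0.00785, same edgeR test). TSHB (ENSOARG00000020127) did not pass, although the groups did not overlap: it was 207 and 47.0 CPM on SPs, 281 and 174 CPM on LP day 1, 452, 380, and 289 CPM on LP day 7, and 1580.4, 1151, and 1069.6 CPM on LP day 28. The log2 fold change was 2.20 (SE 0.51, FDR 0.18, same edgeR test). CGA, with 5717 to 10418 CPM in the earlier and 5200.3 to 10401 CPM in the later samples, had -0.07 (FDR 0.96). The melatonin receptor gene MTNR1A stood at 12.3 to 19.9 CPM and then 14.5 to 41.5 CPM (log2 fold change 0.79, FDR 0.51, same edgeR test), with all 3 LP day 7 samples and LP day 28 sample 1 above the earlier range. PDE10A, which breaks down cyclic nucleotides, had 0.62 (FDR 0.64), and DIO2, the activating deiodinase, 0.83 (FDR 0.68).

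CHGA (ENSOARG00000013347) encodes chromogranin A of secretory granules and was the single member of the list of SP markers that passed. It was 4292 and 2629 CPM on SPs, 2092 and 3434 CPM on LP day 1, 1317, 1313, and 1626 CPM on LP day 7, and 1391, 889, and 1121 CPM on LP day 28. All later samples lay below all earlier samples, and the log2 fold change was -1.30 (SE 0.18, FDR 0.0119, same edgeR test), which is 2.46-fold lower. The study chose these markers partly on these samples, so their direction is not independent evidence. All 5 listed markers had negative values, with a list median of -1.39 beside -0.00 over all genes and all 5 at an unadjusted p under 0.05. NPSR1, a neuropeptide receptor gene, had 4.24 to 11.8 CPM in the earlier and 0.569 to 2.90 CPM in the later samples (log2 fold change -2.09, FDR 0.0914, same edgeR test). SOX14, a transcription factor gene, had -1.39 (FDR 0.15), C1orf110 -1.75 (FDR 0.46), and PAQR6 -0.61 (FDR 0.53).

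CHGA stood apart from the other granule genes. Of 8 secretory granule genes tested, 1 passed and was lower, while 6 had positive values, 6 had an unadjusted p under 0.05, and the list median was 0.43 beside -0.00 over all genes. VGF, a granule peptide precursor gene, was 96.1 to 218 CPM in the earlier and 158 to 399 CPM in the later samples (log2 fold change 0.89, FDR 0.35, same edgeR test). The prohormone convertase genes PCSK1 and PCSK2 had 0.51 and 0.59, with FDR values of 0.66 and 0.38. CHGB, which encodes the related chromogranin B, had -0.18 (FDR 0.80), with overlapping groups at 2573 to 3259 CPM and 1910.3 to 3251 CPM.

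The remaining genes that rose were DCT, PDE3A, ANGPTL2, ELOVL6, FNDC3A, and CYP4V2. DCT (ENSOARG00000000618), the dopachrome tautomerase gene of melanin synthesis, had 11.7, 13.6, 15.5, and 13.2 CPM in the earlier samples, 222, 160, and 241 CPM on LP day 7, and 54.1, 66.8, and 49.9 CPM on LP day 28. Its log2 fold change was 3.28 (SE 0.48, FDR 0.0119, same edgeR test), and TYRP1, the other pigment gene tested, had -0.05 (FDR 0.98). PDE3A (ENSOARG00000020451), a cyclic nucleotide phosphodiesterase gene, had 2.65 to 6.09 CPM and then 11.1 to 19.9 CPM, with a log2 fold change of 1.84 (SE 0.27). ANGPTL2 (ENSOARG00000012521), which encodes a secreted angiopoietin-like protein, had 17.6 to 33.5 CPM and then 41.2 to 118 CPM, a change of 1.82 (SE 0.27). ELOVL6 (ENSOARG00000004328), a fatty acid elongase gene, had 6.92 to 10.3 CPM and then 18.05 to 37.9 CPM, a change of 1.61 (SE 0.24). For these 3 genes the FDR was 0.0119 in the same edgeR test. FNDC3A (ENSOARG00000008377), which encodes a fibronectin type III domain protein, and CYP4V2 (ENSOARG00000008195), a fatty acid hydroxylase gene, changed least, by 1.06 (SE 0.17, FDR 0.0151) and 1.02 (SE 0.13, FDR 0.00785, same edgeR test). CYP4V2 stood at 91.8 to 106 CPM in the earlier and 149 to 236 CPM in the later samples.

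**Figure D4:**
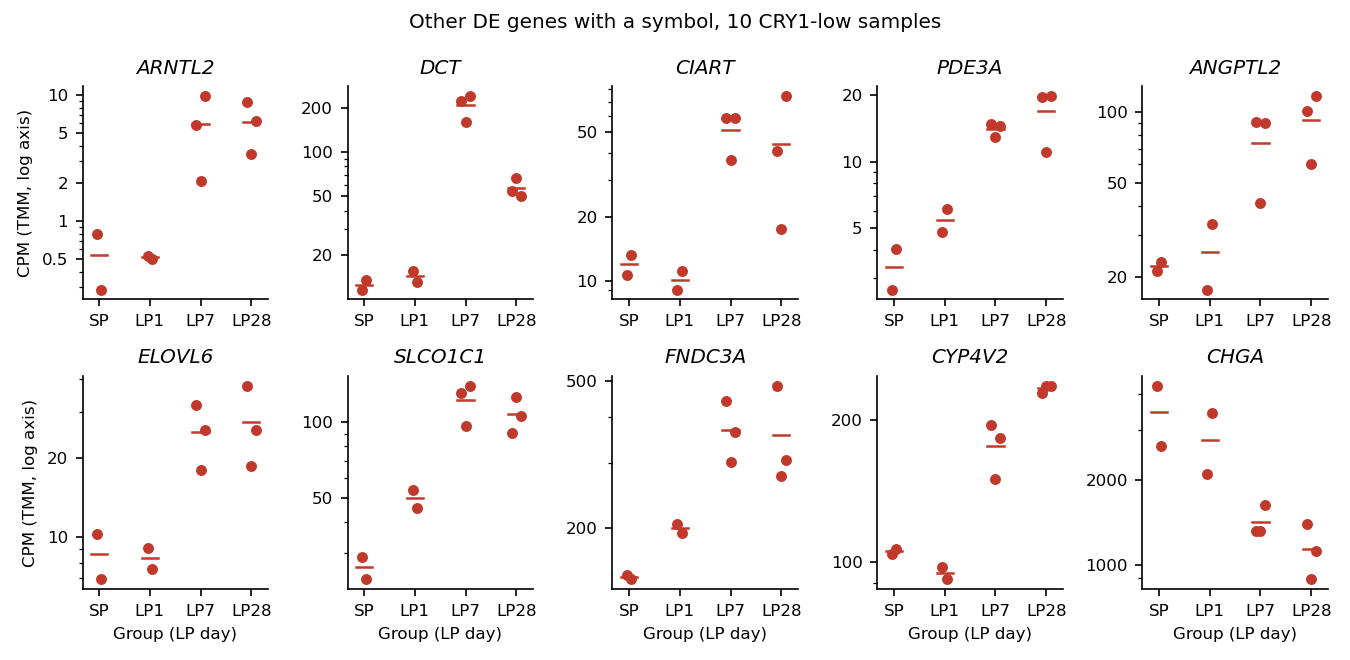
CPM (TMM normalized, log axes) of the 10 other genes with a symbol that passed in the 10 CRY1-low samples, by photoperiod group, with each sample as a point and the group mean as a line. DCT is highest on LP day 7 (160 to 241 CPM), and CHGA lies at 1626 CPM or less in each later sample.

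ENSOARG00000001811 was the other gene that fell. It had 22.0 and 13.8 CPM on SPs, 13.4 and 14.2 CPM on LP day 1, and from 2.32 to 7.39 CPM, median 3.11 CPM, in the later samples. Its log2 fold change was -2.02 (SE 0.31, FDR 0.0138, same edgeR test).

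Lists of signalling, adhesion, matrix, and dividing-cell genes held few or no calls. None of the 5 hedgehog and WNT genes passed (median -0.31, 1 at an unadjusted p under 0.05). SHH, the morphogen sonic hedgehog, was 12.7 and 8.37 CPM on SPs, 22.4 and 18.3 CPM on LP day 1, 85.3, 65.9, and 105 CPM on LP day 7, and 38.8, 34.7, and 22.3 CPM on LP day 28, with LP day 28 sample 5 just under the highest earlier sample. Its log2 fold change was 1.94 (SE 0.40, FDR 0.11, same edgeR test). None of 8 axon guidance and adhesion genes passed (median 0.48, 3 at an unadjusted p under 0.05). The lowest p among them was that of the contactin gene CNTN1, with 139 to 197 CPM and then 221 to 361 CPM (log2 fold change 0.76, FDR 0.0914). KAL1, which guides neurons and axons, had 3.18 and 8.94 CPM on SPs and 29.9 and 31.4 CPM on LP day 1. In the later samples KAL1 had 33.4 to 69.2 CPM (log2 fold change 1.31, FDR 0.47, same edgeR test). SEMA3D had 0.764 to 2.67 CPM in all 10 samples, near the limit of detection, and a change of -0.17 (FDR 0.96, same edgeR test). None of 15 matrix genes passed (median 0.06, 2 at an unadjusted p under 0.05, FMOD with the lowest p at -0.73), and none of 4 cell division genes (median 0.76, 1 at an unadjusted p under 0.05, TOP2A at 0.69, FDR 0.54). None of 8 immediate early genes passed either (median 0.10), with 2 at an unadjusted p under 0.05. Of the ER and Golgi list 1 of 42 genes had an identifier, CREB3L2 at 0.34 (FDR 0.83, same edgeR test).

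Interferon-response genes marked out single samples and not a group. LP day 7 sample 3 had 2137 CPM of MX1, 1151 CPM of ISG17, and 1003 CPM of OAS2, and SP sample 3 had 500, 100, and 316 CPM of them. The other 8 CRY1-low samples stayed at 35.0 to 75.9 CPM of MX1, 1.74 to 5.88 CPM of ISG17, and 18.3 to 31.0 CPM of OAS2. Summed over the 13 genes with an identifier, of 21 listed, the range was 282 to 1863 CPM in the earlier and 259 to 8662 CPM in the later group. None of the 13 passed, and none had an unadjusted p under 0.05, although all 13 had positive values and the median was 1.27. Their part in the counts of changed genes was not tested. Without LP day 7 sample 3 all 13 changed genes still passed, and without SP sample 3 the 4 that passed were all among the 13.

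Within the later group, LP day 28 was compared with LP day 7 over 3 samples each in a fit of all 10 CRY1-low samples by their 4 labelled groups. DCT fell, while VMO1 and ABCG2 rose, and these 3 genes are 0.0189% of the 15861 tested, with 1293 at an unadjusted p under 0.05. DCT changed by -1.85 (SE 0.17, FDR 0.000721, edgeR's quasi-likelihood test, Benjamini-Hochberg adjusted). VMO1 (ENSOARG00000007112), a homologue of a vitelline membrane protein gene, went from 53.9, 29.2, and 65.2 CPM on LP day 7 to 311, 177, and 314 CPM on LP day 28, a change of 2.44 (SE 0.29, FDR 0.00452, same edgeR test). Its earlier samples stood at 5.34 to 15.6 CPM, and in the main comparison it just missed the threshold, with a log2 fold change of 3.70 (SE 0.67, FDR 0.0569). ABCG2 (ENSOARG00000001914), an efflux transporter gene, was 75.7, 46.6, and 70.5 CPM on LP day 7 and 364, 209, and 217 CPM on LP day 28, a change of 2.05 (SE 0.23, FDR 0.00306, same edgeR test). The earlier samples stood at 44.0 to 64.4 CPM, so that 1 of the 3 LP day 7 samples lay within their range. EYA3 and ACSL4 did not pass between the LP days, with changes of -0.73 (FDR 0.67) and 0.96 (FDR 0.29), and SHH had -1.39 (FDR 0.0588, same edgeR test).

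Within the earlier group, LP day 1 was compared with SPs over 2 samples each in the same fit. FBXL21 (ENSOARG00000014847) rose from 28.3 and 24.5 CPM to 104 and 126 CPM, and returned to 33.9 to 66.7 CPM in the later samples. Its change on LP day 1 was 2.09 (SE 0.27, FDR 0.0154, same edgeR test). The 2 other genes that passed have no symbol and rest on both SP samples. ENSOARG00000020789 had 964 and 1708 counts on SPs but 9 and 0 counts on LP day 1, and ENSOARG00000020801 had 215 and 324 counts against 0 and 0. The 3 genes are 0.0189% of the 15861 tested, and 1070 had an unadjusted p under 0.05. With edgeR no gene passed without LP day 1 sample 1 (616 at an unadjusted p under 0.05) or LP day 1 sample 6 (1386), and 1 passed without SP sample 1 or SP sample 3, with FBXL21 lost in each case. These fits leave 1 sample in a group, which is assumed to vary like the other groups. Over all samples, limma's voom called 0 and DESeq2 5. KAL1 had 2.33 (FDR 0.24) and EYA3 1.02 (FDR 0.78, same edgeR test).

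The same contrast was then fitted in the 13 CRY1-high samples, which share no sample with the CRY1-low set. There 71 genes passed, 47 higher and 24 lower, or 0.476% of the 14912 tested, with 1921 at an unadjusted p under 0.05. The 7 earlier samples count LP day 1 samples 3 and 4 as 2. These differed by little more than counting noise (mean chi-square of 1.15 per gene), and LP day 1 sample 4 held only 307952 counts in total. With the counts of both summed, 53 genes passed. Of the 13 genes that changed in CRY1-low samples, 12 had the same direction in CRY1-high samples, 9 of these at an unadjusted p under 0.05 and 5 past the FDR threshold, whereas 8910 of the 14791 genes tested in both sets, or 60.2%, had the same direction. The 5 were ARNTL2, DCT, CYP4V2, CHGA, and FNDC3A, with log2 fold changes of 3.57, 2.92, 1.39, -1.21, and 0.79 in CRY1-high samples. In the other direction, 60 of the 71 genes had the same sign in CRY1-low samples and 27 had an unadjusted p under 0.05 there, beside 1113 of the 14791 genes in all, in either direction. TSHB passed in the CRY1-high samples, from 181 to 664 CPM and then 666 to 1326 CPM (log2 fold change 1.39, FDR 0.0184, edgeR's quasi-likelihood test, Benjamini-Hochberg adjusted). ABCG2 and VMO1 passed there as well, with 1.14 and 3.52. GADD45G, a growth arrest gene, was 25.9 to 113 CPM and then 1.68 to 15.1 CPM in CRY1-high samples (log2 fold change -3.08, FDR 0.00105), and in CRY1-low samples it was low throughout, at 1.73 to 7.10 CPM and then 0.284 to 2.61 CPM (-1.20, FDR 0.60, same edgeR test).

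Whether the change differed between the 2 sets was tested as an interaction over all 23 samples. The rises of EYA3 and ACSL4 were larger in CRY1-low samples, and 4 genes without a symbol changed in a more negative direction there. Under the alternatives, ENSOARG00000008350 kept its call in 9 and lost it in 25, ENSOARG00000012206 in 16 and 16, and ENSOARG00000020789 in 19 and 15. The last 2 of these genes had high counts in few samples. ENSOARG00000020789 had 964 and 1708 counts in SP samples 1 and 3, and 225 and 179 in LP day 7 and LP day 28 samples 6. ENSOARG00000012206 had 23 and 64 counts in the same SP samples, and 54 and 35 in LP day 7 samples 2 and 4. The 6 genes of this test are 0.0379% of the 15843 tested, with 765 at an unadjusted p under 0.05. With the counts of LP day 1 samples 3 and 4 summed, 5 passed. In CRY1-high samples EYA3 had 33.4 ± 10.9 CPM (SD, n = 7) on SPs and LP day 1 and 42.4 ± 9.46 CPM (SD, n = 6) on LP days 7 and 28, a log2 fold change of 0.34 (SE 0.19, FDR 0.47, same edgeR test). No CRY1-high sample reached 123 CPM, the lowest value of a later CRY1-low sample. The difference of the 2 changes was 2.82 (95% interval 1.88 to 3.77, FDR 0.0152, same edgeR test). ACSL4 had 87.4 ± 14.2 CPM (SD, n = 7) and 122 ± 36.9 CPM (SD, n = 6) in CRY1-high samples, a log2 fold change of 0.48 (FDR 0.185), and the difference was 2.17 (95% interval 1.49 to 2.86, FDR 0.00904, same edgeR test). Without SP sample 3 the FDR for EYA3 in this test was 0.0522, and limma's voom called neither gene.

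For the other named genes the test did not separate the 2 sets, and some intervals were wide. CIART and PDE3A had differences of 1.36 (95% interval 0.54 to 2.18, FDR 0.78) and 1.26 (0.38 to 2.14, FDR 0.92). CYP4V2, with -0.37 (-0.86 to 0.12), and CHGA, with -0.09 (-0.68 to 0.50), had narrower intervals than ARNTL2, with -0.19 (-2.05 to 1.67), and DCT, with 0.36 (-1.09 to 1.82). The FDR of these 4 genes was 0.996 or 1.00 in the same edgeR test. ENSOARG00000001811 fell in CRY1-low samples but had 5.00 to 9.87 CPM and then 5.91 to 12.7 CPM in CRY1-high samples, and the difference was -2.31 (SE 0.37, FDR 0.00904, same edgeR test).

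**Figure D5:**
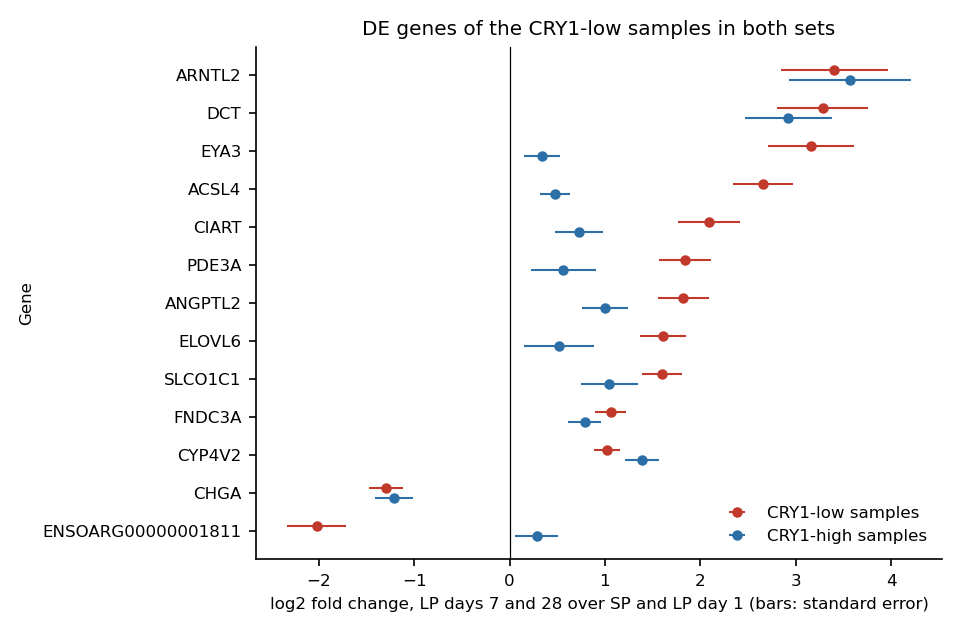
Log2 fold change with its standard error of the 13 genes that passed in CRY1-low samples (red), beside the value of the same gene in CRY1-high samples (blue). EYA3 lies at 3.16 against 0.34 and ACSL4 at 2.66 against 0.48, while CHGA lies at -1.30 against -1.21.

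The headers of the count files name numbered folders whose numbers repeat, so that samples numbered 1 to 3 and those numbered 4 to 6 come from different folder sets. The CRY1-low samples of the first set were 3 earlier and 4 later samples, and the second set held 1 earlier sample, too few for a value of its own. In the first set alone 0 genes passed edgeR's quasi-likelihood test and 966 had an unadjusted p under 0.05, a subset to which no other tool was applied. EYA3 and ACSL4 there changed by 3.48 and 2.74 on the log2 scale. With the folder set as a term over all 10 samples, 16 genes passed, all 13 among them.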

How the data were processed

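PT RNA-seq counts of 23 samples were used, 10 of them CRY1-low. The authors deposited whole-number counts of reads per Ensembl sheep gene, 25197 genes in each sample. The submitters' processing notes name Bowtie, HTSeq, and the build Oar_v3.1, whereas the file headers look like featureCounts output made from TopHat alignments, so the counter was not settled. Use of strand is not given in the sources used here. Groups came from the sample labels.

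All fits used edgeR 4.0.16 under R 4.3.3. A gene was kept if it exceeded 1 CPM in a minimum number of samples (4 in CRY1-low samples, 6 in CRY1-high samples, 2 in the fit of 4 groups, 4 in the fit of all 23 samples), counts were TMM normalized within each fit, and the quasi-likelihood test was applied with Benjamini-Hochberg adjustment over all genes tested. The SE was derived from the log2 fold change and its F statistic (size of the change over root F), and 95% intervals were formed from it. Reads carried no molecular identifiers and so may repeat a molecule. The total counts given with the results set the precision of low genes. The procedure was tested on simulated data.

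The members, gene lists, and comparisons were chosen with earlier results of these data known. Symbols for 1259 genes (29 symbols stand for more than 1 identifier) came from supplementary tables of the study that list DE genes, so paired genes favour changed ones. Fold changes and p-values in those tables were not used. Named by rule were up to 12 changed genes in each direction with a symbol and no overlap, up to 4 in each direction of the other comparisons, the genes that the study names for RNA-seq, changed list members or, failing these, the member with the lowest p, and CRY1. Further list members, genes without a symbol, and the genes of cell types and interferon response were named after their values were seen.

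Alternatives in scaling and filter were library-size scaling, upper-quartile scaling, DESeq2 size factors in edgeR, no filter, and edgeR's filterByExpr. Other tests were DESeq2 1.42.0, voom of limma 3.58.1 with sample quality weights, an exact test, and a stricter FDR. Further alternatives were other sets of samples in the fit, a replicate block, hormone genes left out, GH1 as a covariate, and each sample left out in turn. The CRY1 rule with PRL left out of the totals chose the same samples. Chosen after seeing the data were the folder set as a term or its first set alone, SP, LP day 1, LP day 7, or LP day 28 alone as the earlier or later group, and LP day 1 samples 3 and 4 summed. No genome positions or sequences are given, since no matching genome was used here. Values of 1 gene are not reported here.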

Additional observations from a re-analysis of the deposited data

Results flagged for a closer look

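Single samples stood far from the rest of their group for 28 of 176 combinations of a gene and a group of CRY1-low samples, or 15.9%. Chance gives about 1 in 20 for genes drawn without regard to their values, which does not apply to this share, since genes were partly chosen after their values were seen and the interferon-response genes vary together. LP day 7 sample 3 accounted for 14 of these and was highest in the later group for interferon-response genes, with 2137 CPM of MX1, 805 CPM of MX2, 1151 CPM of ISG17, 732 CPM of IFIT1, 293 CPM of IFIT3, 1172 CPM of IFI6, 77.3 CPM of IFI44, 164 CPM of IFI44L, 1003 CPM of OAS2, 104 CPM of RSAD2, 175 CPM of IRF7, 486 CPM of IRF9, and 364 CPM of DDX58. It was also highest for GNRHR, the receptor gene of gonadotrophs, with 107 CPM. SP sample 3 was highest in the earlier group for 6 genes of the same response, with 499.7 CPM of MX1, 100.1 CPM of ISG17, 153 CPM of IFIT1, 236 CPM of IFI6, 25.97 CPM of IFI44, and 316 CPM of OAS2.

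In the earlier group, SP sample 1 was highest for ENSOARG00000001811 with 21.98 CPM. In the later group, LP day 7 sample 5 was highest for KAL1 with 69.2 CPM and for ENSOARG00000012206 with 0.764 CPM, which is 3 counts, and lowest for the granule gene SCG3 with 439.9 CPM. LP day 28 sample 5 was highest for the leukocyte gene PTPRC with 87.6 CPM, for ENSOARG00000020789 with 6.29 CPM, and for ENSOARG00000020801 with 2.91 CPM. LP day 28 sample 1 was highest for PCSK1 with 1053 CPM.

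Between CRY1-low and CRY1-high samples, the change differed by the interaction test for 6 genes. On the log2 scale the difference of the changes was 2.82 for EYA3, 2.17 for ACSL4, -2.31 for ENSOARG00000001811, and -1.14 for ENSOARG00000008350. It was -10.14 for ENSOARG00000012206 and -10.28 for ENSOARG00000020789, both of which were at or near 0 counts in several samples, so that these sizes depend on the prior count of the fit.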

How the results depend on the processing

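The 13 changed genes of the main comparison became 21 without a filter, 72 in DESeq2, 7 in voom, 59 in the exact test, 3 at an FDR under 0.01, 27 with the 4 labelled groups in the fit, 222 (115 higher, 107 lower) with all 23 samples and a term for the CRY1 class, 0 in the first folder set alone (edgeR, 966 at an unadjusted p under 0.05), 21 (9 of the 13 kept) with SPs and 9 (4 kept) with LP day 1 alone as the earlier group, and 18 (9 kept) with LP day 7 and 45 (12 kept) with LP day 28 alone as the later group. Leaving out single samples gave 4 (without SP sample 3) to 23 (without LP day 7 sample 3), and 7 (5 of the 13 kept) without SP sample 1. Between LP days 28 and 7, the 3 genes became 6 with library-size scaling (2 higher, 4 lower, with the median of all genes at -0.17), 136 without a filter, 52 in DESeq2, 9 in voom, and 5 with these days alone in the fit, and 3 to 7 with single samples left out (7 without LP day 28 sample 1). Between LP day 1 and SPs, the 3 genes became 22 without a filter, 5 in DESeq2 (4 higher, 1 lower), 0 in voom (884 at an unadjusted p under 0.05), and 1 at an FDR under 0.01, and 0 to 4 with single samples left out. The 71 genes in CRY1-high samples became 44 with library-size scaling (37 higher, 7 lower), 214 in DESeq2 (113 higher, 101 lower), 126 in voom (64 higher, 62 lower), and 19 at an FDR under 0.01, and 27 (without LP day 28 sample 6) to 282 (without LP day 1 sample 2) with single samples left out. The 6 genes of the difference became 0 in voom (831 at an unadjusted p under 0.05) and 2 at an FDR under 0.01, and 3 to 6 with single samples left out. The cause was not tested. No named gene that had passed its test changed direction under the alternatives run. Several that had not passed took either sign, among them FBXL21 (-1.12 to 0.97), CGA (-0.28 to 0.14), and SEMA3D (-0.52 to 0.13) in the main comparison, and ARNTL2 (-0.25 to 0.21) and DCT (-0.69 to 0.42) in the difference. Same-numbered samples of LP days 7 and 28 deviated together little or not at all (r of 0.13, -0.006, and 0.025). So few samples cannot decide whether the numbers pair them, and no pairing was assumed in the main fits. With the number as a replicate block, the counts were 9, 16, 2, 22, and 4 in the order above. Of the genes that had passed in the main fits, 6 of 13, 3 of 3, 2 of 3, 11 of 71, and 3 of 6 were kept. LP day 1 samples 3 and 4, both CRY1-high, differed by little more than counting noise (mean chi-square of 1.15 per gene, where noise alone gives 1). With their counts summed, 53 genes passed in CRY1-high samples and 5 in the difference.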
